A study of Mus musculus with 2 samples.

Results

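The genes described here carry the signal of leukaemia inhibitory factor (LIF) from the cell surface to the nucleus. They were chosen by name, as 10 gene symbols: the receptor chains Lifr, Il6st and Osmr, the kinases Jak1, Jak2 and Tyk2, the transcription factor Stat3, the feedback inhibitors Socs3 and Cish, and the direct target Pim1. Of these, 9 have a row among the 14500 gene symbols of the table, and Osmr was not analysed here. The samples were 46C mouse embryonic stem cells, a line whose Sox1 locus carries a green fluorescent protein reporter. The PB-Gbx2 library stood for cells transfected with a vector for the homeobox factor Gbx2, and the PB library for cells transfected with the empty vector. Both cultures were at passages 21 to 24, on gelatin, in serum medium that contained LIF, so LIF was present in both. Each group has 1 library, and no value below has a replicate error. The labels do not say whether a library came from 1 clone or from a pool of transfected cells.

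LIF binds Lifr, which pairs with Il6st, the signalling chain (gp130) shared by the receptors of the interleukin 6 family. The JAK kinases bound to these chains phosphorylate each other and the receptor tails, and Stat3 docks there, is phosphorylated, and moves to the nucleus. Stat3 activates genes that keep mouse embryonic stem cells self-renewing, and also Socs3, which shuts the receptor complex down again. Much of this control acts on protein phosphorylation, which RNA levels do not measure. Gbx2 is itself known as a target of LIF and Stat3 in mouse embryonic stem cells.

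The transfected gene, Gbx2, had a level of 1178 in PB-Gbx2 and 345 in PB, 3.41-fold higher. The table does not separate vector reads from those of the cell's own gene, and the exons of Gbx2 share 689 bases with a gene annotated on the opposite strand. The groups follow the library titles, which this direction matches. The source names give the opposite assignment, under which every direction below would be the other way round. Levels are whole numbers normalized by the authors to one shared distribution, and read depth is unknown. Ratios are given as log2 of PB-Gbx2 over PB after adding 1 to each level, which understates changes of low genes. For scale, each ratio is set beside those of the 725 genes in its group, 1 of 20 equal groups by mean level. These are called genes of similar level, and the comparison is a description of these libraries and not a test. It is not stated whether levels were scaled by gene length, so those of different genes do not show which has more RNA. They are grouped, ordered and summed here only as listed scores. Of the embryonic stem cell markers, 10 of 10 had a row, with a summed level of 135004 in PB-Gbx2 and 103002 in PB. Of these, 8 were above 0 and 3 were at least 2-fold higher in PB-Gbx2, namely Nanog (log2 ratio 1.16), Fbxo15 (1.06) and Zfp42 (16671 in PB-Gbx2 and 8320 in PB). Of all 14500 genes, 7136 were above 0 and 5.14% were at least 2-fold higher. Of 12 fibroblast markers, 7 had a row (summed levels 3221 and 3997 in PB-Gbx2 and PB), with 2 past 1.5-fold in each direction. Among all genes, 11.6% were past it upwards and 12.2% downwards. The higher markers were Col1a2 (18 in PB-Gbx2 and 9 in PB) and Twist1 (26 and 16), both at very low levels. The lower markers were Thy1 (492 in PB-Gbx2 and 866 in PB) and Col1a1 (36 and 132). Col1a1 lay below the middle 95% of genes of similar level. Of 8 primitive endoderm markers 5 had a row (summed levels 1900 in PB-Gbx2 and 1901 in PB), and Lamb1 makes up most of that sum. The other 4, at levels of 125 or less, were higher in PB-Gbx2. Of these, Gata4, Gata6 and Pdgfra passed 1.5-fold, as did 11.6% of all genes. All 4 lay inside the middle 95% of genes of similar level. Col3a1, Dcn, Sox17 and Foxa2, further listed markers of those other cell types, were among those without a row. The part of these markers in the ratios below was not tested. In such bulk samples, fewer cells that express a gene and less RNA of it per cell cannot be told apart.

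The receptor, kinase and Stat3 genes had similar levels in both cultures, and the one member that differed by 1.5-fold was the weakly listed inhibitor Cish. Among the 9 members, 1 was at least 1.5-fold higher in PB-Gbx2, where 11.6% of all genes were, and 0 were at least 1.5-fold lower, where 12.2% of all genes were. At 2-fold the counts were 0 higher and 0 lower, against 5.14% and 5.26% of all genes. With 9 genes, these shares are near the background. A level of 1000 in either library was reached by 7 members, none of which passed 1.5-fold. Among all 4253 genes that reached it, 4.26% passed 1.5-fold upwards in PB-Gbx2 and 4.37% downwards. The median log2 ratio of the members was -0.12, with 2 above 0 and 7 below, and that of all genes was 0. All 9 members lay inside the middle 95% of genes of similar level. The authors' adjusted p-values cannot decide whether the members differed, because neither culture has a replicate library.

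**Figure D1:**
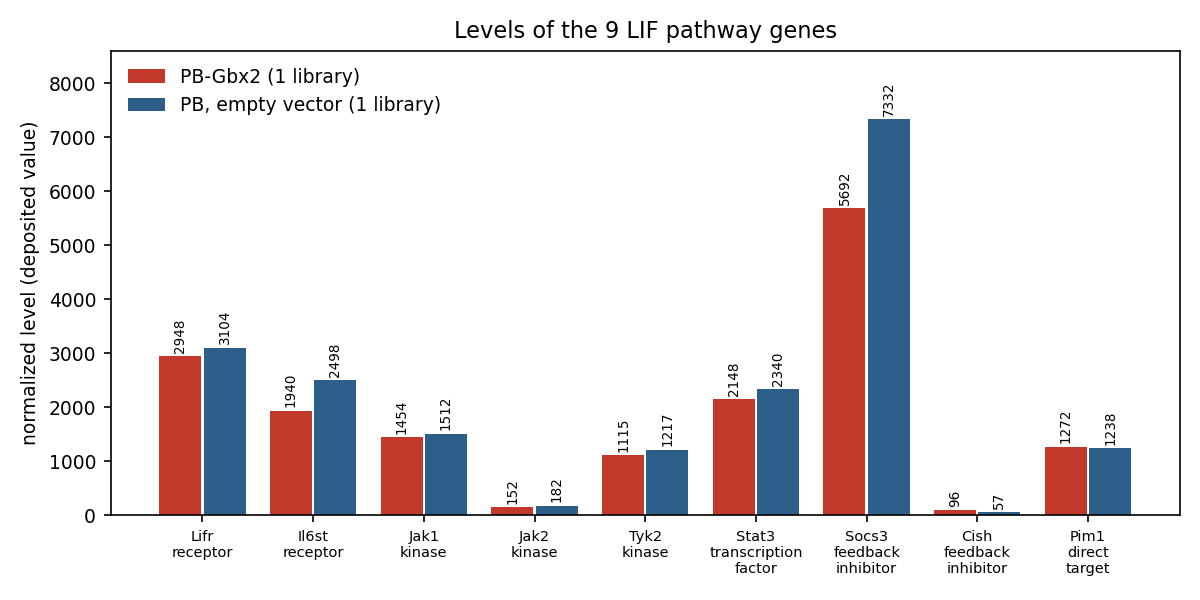
Normalized level (vertical axis, deposited values) of each of the 9 LIF pathway genes in the PB-Gbx2 library (red, left bar) and the PB library (blue, right bar), 1 library each, with the value above each bar. Socs3 and Il6st show the largest gaps in level (5692 against 7332, and 1940 against 2498), while Jak1, Lifr and Pim1 are nearly level between libraries.

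The receptor chains were slightly lower in PB-Gbx2. Lifr, the chain that binds LIF, had a level of 2948 in PB-Gbx2 and 3104 in PB, a log2 ratio of -0.07. A ratio of at least this size in either direction was found in 73.0% of the genes of similar level. Il6st, the shared signalling chain, had a level of 1940 in PB-Gbx2 and 2498 in PB. It was 1.29-fold lower (log2 ratio -0.36), and 18.3% of genes of similar level differed by as much or more.

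Il6ra and Cntfr, other receptor chains of the family, were higher in PB-Gbx2. Il6ra, which binds interleukin 6 and pairs with Il6st, stood at 195 in PB-Gbx2 and 61 in PB. That is 3.20-fold higher (log2 ratio 1.66), outside the middle 95% of genes of similar level, which ran between -1.25 and 1.39. In the authors' deposited table its p is 0.0286 and its adjusted p 1. Its exons share 242 bases with a gene annotated on the opposite strand. Cntfr, the chain for ciliary neurotrophic factor, stood at 84 in PB-Gbx2 and 46 in PB, inside the spread of its level group. Il11ra1, the interleukin 11 chain, stood at 180 in PB-Gbx2 and 225 in PB. Over the 5 receptor genes with a row, the median log2 ratio was -0.07, with 2 at least 1.5-fold higher and 0 lower. The shares over all genes were 11.6% higher and 12.2% lower.

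Among the ligands, the gene for LIF itself was higher in PB-Gbx2. Lif had a level of 178 in PB-Gbx2 and 34 in PB, 5.24-fold higher (log2 ratio 2.36), and 1.24% of the genes of similar level differed by as much or more. It had the largest absolute ratio of the 77 genes reported in all lists of the pathway. Its p in the authors' deposited table is 0.00538 and its adjusted p 0.465. The medium already contained LIF protein, and the table does not measure how much the cells secreted. Ctf1 (cardiotrophin 1, which also signals through Lifr and Il6st) stood at 20 in PB-Gbx2 and 68 in PB. The exons of Ctf1 share 87 bases with those of Ctf2 on the opposite strand. Ctf1 lay inside the spread of genes of such low level, whose middle 95% ran between -1.87 and 2.08. Il6, Il11, Osm, Cntf and Clcf1 had no row and were not analysed here.

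The kinases that start the phosphorylation cascade were close in both cultures. Jak1, the main kinase of the Il6st complex, stood at 1454 in PB-Gbx2 and 1512 in PB, a log2 ratio of -0.06. Tyk2, which also associates with Il6st, stood at 1115 in PB-Gbx2 and 1217 in PB (log2 ratio -0.13). In the groups of similar level, 85.5% of genes differed by as much as Jak1 or more, and 62.2% by as much as Tyk2. Jak2 stood at 152 in PB-Gbx2 and 182 in PB, 1.20-fold lower (log2 ratio -0.26), in a level group whose middle 95% ran between -1.25 and 1.39. The fourth kinase of the family, Jak3, which acts with the common gamma chain of other cytokine receptors, stood at 1298 in PB-Gbx2 and 1008 in PB (1.29-fold higher, log2 ratio 0.36). None of the 4 passed 1.5-fold, where 11.6% of all genes did upwards and 12.2% downwards. Their median log2 ratio was -0.09.

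**Figure D2:**
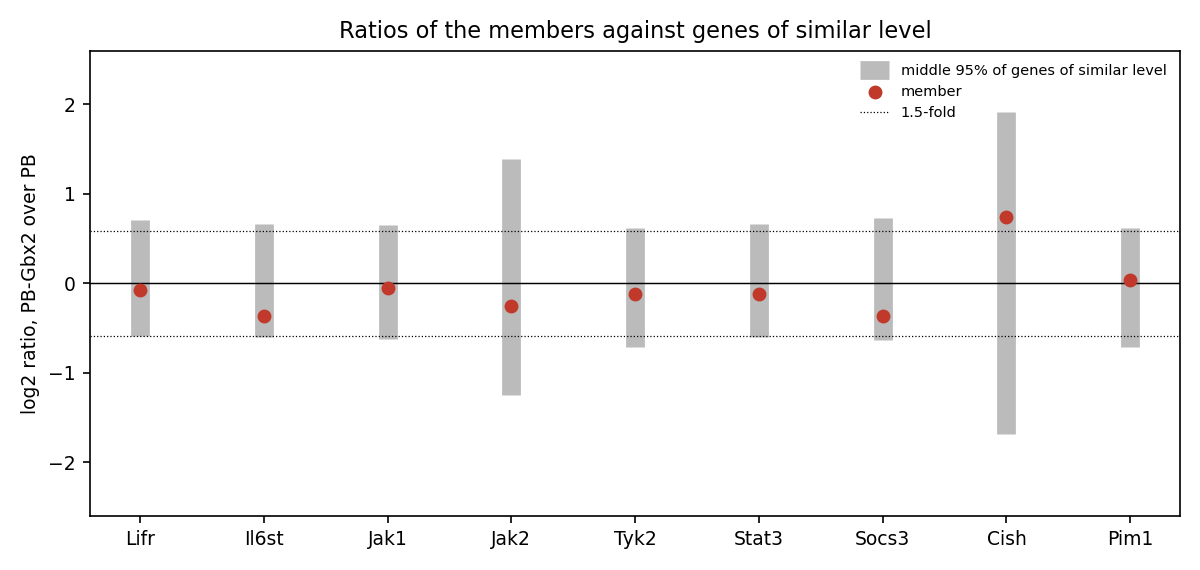
Log2 ratio of PB-Gbx2 over PB for each member (red points), with the middle 95% of the 725 genes of similar level (grey bars) and the 1.5-fold lines (dotted). Every point lies inside its grey bar, and the bars of Jak2 and Cish, the members with the lowest levels, are the widest.

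Stat3 stood at 2148 in PB-Gbx2 and 2340 in PB, 1.09-fold lower (log2 ratio -0.12), and 60.3% of genes of similar level differed by as much or more. In the reference annotation its exons share 72 bases with those of Stat5a, its neighbour on the opposite strand, and the sources used here do not say whether counting used strand. Stat5a, a relative that responds to other cytokines, stood at 120 in PB-Gbx2 and 233 in PB, 1.94-fold lower, while its near-identical copy Stat5b stood at 226 in PB-Gbx2 and 282 in PB. The split of reads between these copies is uncertain. Stat4, known for interleukin 12 signalling in lymphocytes, stood at 68 in PB-Gbx2 and 135 in PB, 1.99-fold lower. Both Stat4 and Stat5a lay inside the middle 95% of genes of their level. Stat2, a partner in interferon signalling, stood at 1508 in PB-Gbx2 and 2077 in PB, and Stat6, which acts downstream of interleukin 4, at 1196 in PB-Gbx2 and 1386 in PB. Among the 6 STAT genes reported, 2 were at least 1.5-fold lower, where 12.2% of all genes were, and 0 higher, where 11.6% were. Their median log2 ratio was -0.39. They are not the whole family, so no direction is given for it.

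The feedback inhibitors Socs3 and Cish differed in opposite directions, both inside the middle 95% of genes of similar level. Both belong to the SOCS family of proteins with an SH2 domain, and both are induced by STAT factors and dampen signalling from cytokine receptors. Socs3 binds Il6st and the JAK kinases, and Cish is known mainly as a target and inhibitor of Stat5 signalling. The sequences around their start sites are shown because both hold the STAT element TTCNNNGAA (upstream of the start in Socs3, within the transcript in Cish), and Bcl6 is shown beside them as the listed Stat3 target with the highest ratio. They are from RefSeq (build GRCm38.p6, whereas the table was made on mm9), 5′ to 3′ on the strand of the gene, with matches to the element in capitals. Socs3 lies on the minus strand at chr11:117969367-117969546, Cish on the plus strand at chr9:107296509-107296678, and Bcl6 on the minus strand at chr16:23981284-23981463. The sequences of Socs3 and Bcl6 end 1 base before the start site, and that of Cish ends at base 20 of the transcript.

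Socs3: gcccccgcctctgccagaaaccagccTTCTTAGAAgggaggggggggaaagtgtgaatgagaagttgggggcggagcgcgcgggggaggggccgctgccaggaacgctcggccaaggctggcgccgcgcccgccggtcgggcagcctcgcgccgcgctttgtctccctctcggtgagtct

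Cish: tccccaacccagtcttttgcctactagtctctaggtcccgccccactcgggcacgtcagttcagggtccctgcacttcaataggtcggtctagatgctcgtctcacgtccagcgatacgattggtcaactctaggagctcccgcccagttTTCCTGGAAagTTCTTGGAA

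Bcl6: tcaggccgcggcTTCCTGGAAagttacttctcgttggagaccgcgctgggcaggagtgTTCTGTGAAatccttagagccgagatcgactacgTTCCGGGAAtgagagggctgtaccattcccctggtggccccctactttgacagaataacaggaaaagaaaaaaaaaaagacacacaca

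The window searched ran from 250 bases before to 50 bases after each annotated start, and the element reads the same on both strands. Socs3 has 1 match, from position -154 relative to its start site. Cish has 2 matches, from bases 1 and 12 of the transcript and thus separated by 2 bases. The window of Bcl6 shown has 3 matches, and the window of its other start site has 1. All 10 members had a window in the table of promoters. Among them, Socs3 and Cish alone held the element, which is 20% of the 10 genes. Over all genes with a window, 9.55% held it, and 8.30% of all 32851 windows did. Among the listed Stat3 targets with a window, 6 of 25 genes (24%) held it. A match describes letters and does not show binding, and targets with matches lay on both sides of 0 (Bcl6, Sgk1 and Irf1 above, Icam1, Zfp36 and Fgl2 below).

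Socs3 stood at 5692 in PB-Gbx2 and 7332 in PB. It was 1.29-fold lower (log2 ratio -0.37), and 19.4% of genes of similar level differed by as much or more. Cish stood at 96 in PB-Gbx2 and 57 in PB, 1.68-fold higher (log2 ratio 0.74). At that level the ratios of other genes scatter widely, and 32.1% differed by as much or more. In the reference annotation 2 genes on the opposite strand overlap exons of Cish, one of them by 479 bases, so its reads may include theirs if counting ignored strand.

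The rest of the SOCS family was similarly divided. Socs5 stood at 122 in PB-Gbx2 and 84 in PB, and Socs6 at 440 in PB-Gbx2 and 339 in PB. Socs4 stood at 562 in PB-Gbx2 and 742 in PB. Socs1, Socs2 and Socs7 differed by at most 1.15-fold. Of the 8 family members, Cish alone passed 1.5-fold upwards, where 11.6% of all genes did, and none downwards, where 12.2% did. There were 5 above 0 and 3 below, and the median log2 ratio was 0.14. Without the members under a level of 100 in both libraries it was -0.055, so its sign rests on weakly listed genes.

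Of the inhibitors outside the SOCS family, Pias2 alone passed 1.5-fold, where 11.6% of all genes did upwards and 12.2% downwards. Pias2, a SUMO ligase of the family of STAT inhibitors, stood at 4898 in PB-Gbx2 and 2699 in PB, 1.81-fold higher (log2 ratio 0.86). That lies outside the middle 95% of genes of its level, between -0.59 and 0.70, and the authors' deposited table gives it an adjusted p of 0.548. Pias3, named as the inhibitor of Stat3, stood at 1304 in PB-Gbx2 and 1282 in PB. The phosphatase Ptpn6 stood at 845 in PB-Gbx2 and 1147 in PB, and the ubiquitin ligase Cbl at 1109 in PB-Gbx2 and 1556 in PB. Over the 9 genes with a row the median log2 ratio was 0.02.

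The adaptors and kinases through which LIF also reaches the ERK and PI3K branches were close throughout. None of the 16 genes reported passed 1.5-fold, 8 were above 0 and 8 below, and the median log2 ratio was 0.01. The adaptor Shc1 had the lowest ratio, with 2332 in PB-Gbx2 and 3288 in PB (1.41-fold lower). Mapk3 (Erk1) stood at 2836 in PB-Gbx2 and 3528 in PB. Ptpn11 (Shp2), the phosphatase that docks on Il6st and links it to the ERK branch, stood at 1876 in PB-Gbx2 and 1820 in PB.

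**Figure D3:**
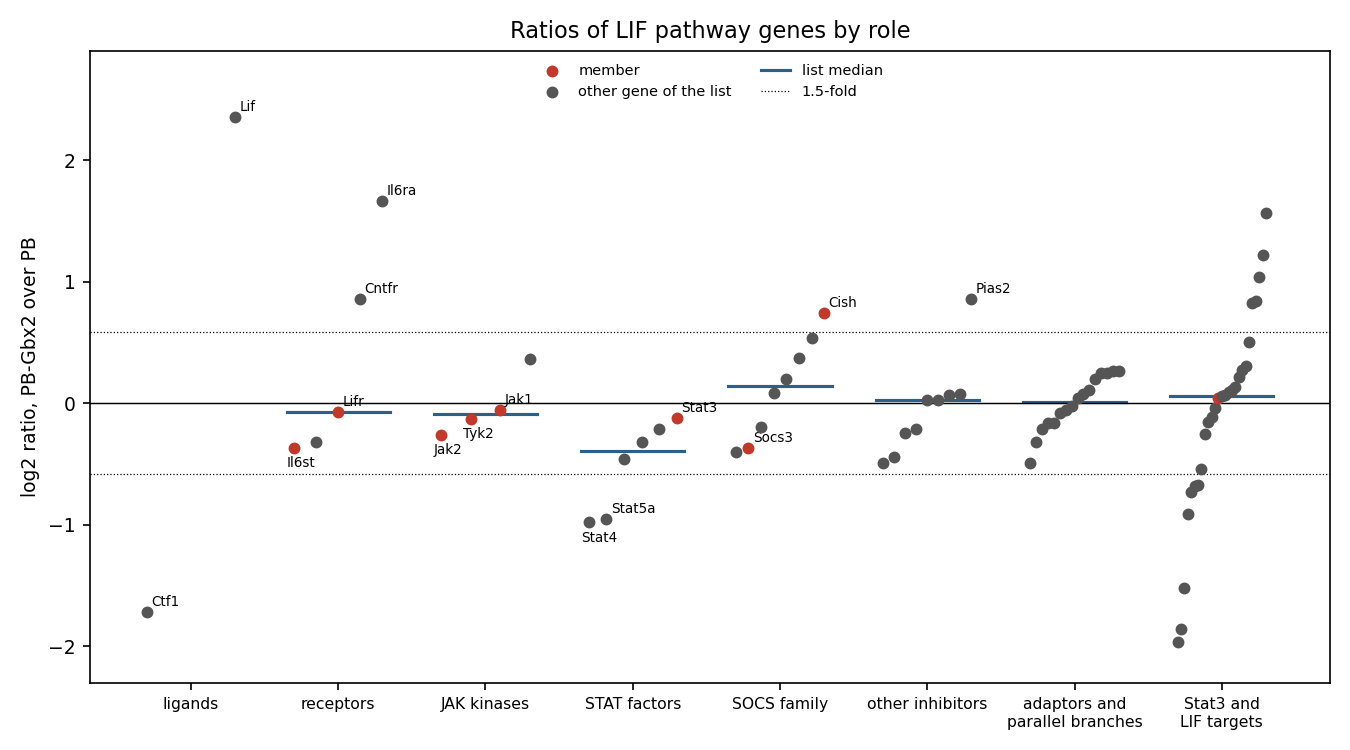
Log2 ratio of PB-Gbx2 over PB for each pathway gene reported, by role, with members in red, other genes in grey, medians of lists with at least 3 genes as blue lines and the 1.5-fold lines dotted. Members and named genes past 1.5-fold are labelled except among the targets. The kinases and the adaptors stay inside the dotted lines, while Lif and Il6ra are the highest genes among ligands and receptors and the Stat3 targets spread to both sides.

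Pim1, a serine/threonine kinase whose gene Stat3 activates, was level between the cultures. It stood at 1272 in PB-Gbx2 and 1238 in PB (1.03-fold, log2 ratio 0.04), and 86.8% of genes of similar level differed by as much or more. Its exons share 468 bases with a gene annotated on the opposite strand. Its relative Pim3 stood at 4753 in PB-Gbx2 and 4402 in PB.

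The wider list of genes known to respond to LIF or Stat3 spread in both directions. Of 30 genes looked for, 27 had a row. Among these, 5 passed 1.5-fold upwards in PB-Gbx2 and 7 downwards (18.5% and 25.9%, against the 11.6% and 12.2% of all genes given above). Some of these reached a level of 1000 in either library and others did not. Among all genes that reached it, 4.26% passed 1.5-fold upwards and 4.37% downwards. The median log2 ratio was 0.06, with 15 above 0 and 12 below. Many of these genes also respond to other signals, such as the ERK branch.

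The 5 higher targets were Bcl6, Klf4, Ccnd1, Sgk1 and Spry2. Bcl6, a transcriptional repressor, stood at 280 in PB-Gbx2 and 94 in PB (2.98-fold higher). Klf4, the Kruppel-like factor that sustains self-renewal downstream of Stat3, stood at 10924 in PB-Gbx2 and 4701 in PB (2.32-fold higher). The cyclin Ccnd1 stood at 1380 in PB-Gbx2 and 670 in PB. The kinase Sgk1 stood at 4701 in PB-Gbx2 and 2630 in PB, and Spry2, an inhibitor of receptor tyrosine kinase signalling, at 1747 in PB-Gbx2 and 984 in PB. All 5 lay above the middle 95% of genes of similar level.

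The 7 lower targets include Ier3, Junb and Zfp36, known as immediate early genes. Ier3 stood at 410 in PB-Gbx2 and 1178 in PB (2.87-fold lower), and its adjusted p is 0.0604 in the authors' deposited table. Gadd45g, a growth arrest gene, stood at 30 in PB-Gbx2 and 120 in PB, and Klf5 at 1092 in PB-Gbx2 and 1808 in PB (1.66-fold lower). These lay below the middle 95% of genes of similar level. The AP-1 factor Junb stood at 450 in PB-Gbx2 and 718 in PB, and Zfp36, which promotes mRNA decay, at 378 in PB-Gbx2 and 605 in PB. Il4ra (18 in PB-Gbx2 and 68 in PB) and Fgl2 (16 in PB-Gbx2 and 31 in PB) were weakly listed. Junb, Zfp36, Il4ra and Fgl2 lay inside the spread of their level groups.

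Several targets with a settled place in the pathway were near level. Tfcp2l1, a transcription factor that can replace much of the action of Stat3 in mouse embryonic stem cells, stood at 11892 in PB-Gbx2 and 12900 in PB. Myc stood at 654 in PB-Gbx2 and 674 in PB, and the survival factor Mcl1 at 8524 in PB-Gbx2 and 7780 in PB. Icam1 stood at 2486 in PB-Gbx2 and 2963 in PB. The AP-1 factor Fos was not near level. With 74 in PB-Gbx2 and 108 in PB, Fos was 1.46-fold lower, inside the spread of its level group. Across the 77 pathway genes reported, 11 lay outside the middle 95% of genes of similar level, 8 of them higher and 3 lower, and none was a member. Of all genes, 95% lie inside by construction, and the lists were chosen with earlier results of these data known.

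**Figure D4:**
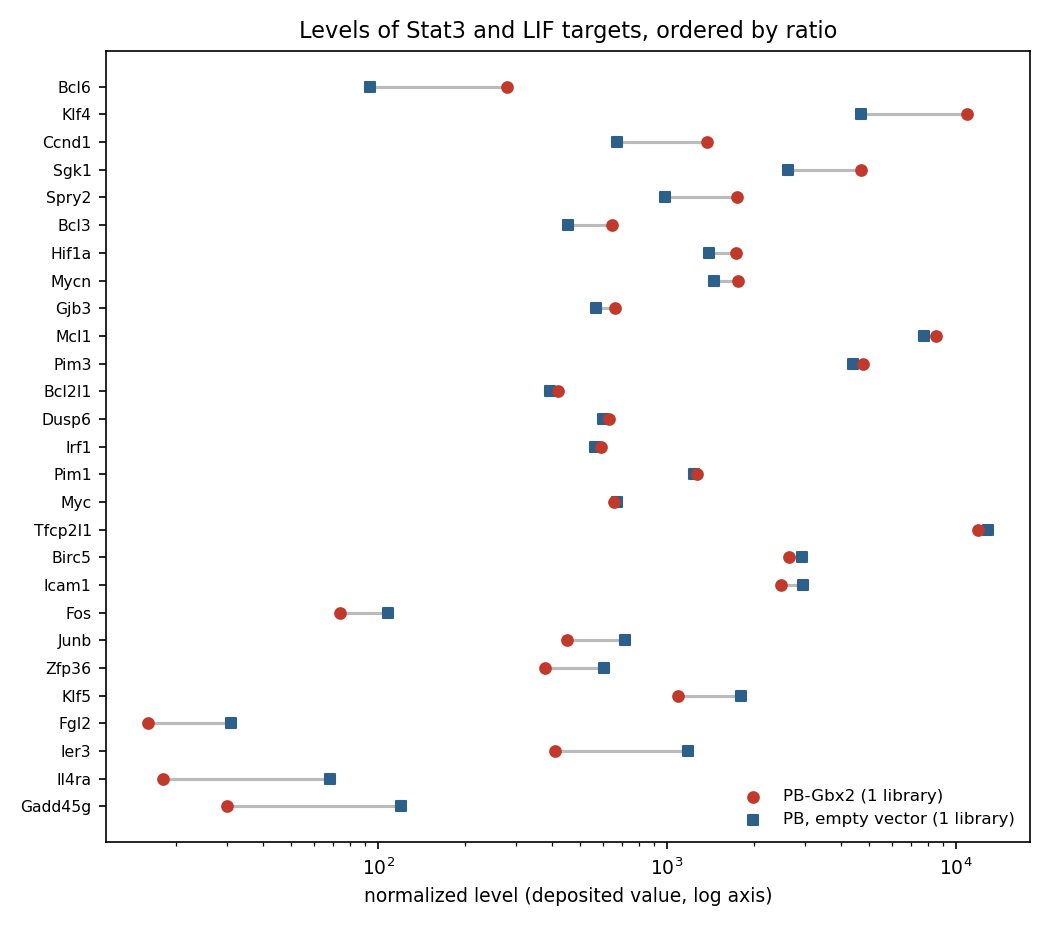
Normalized level (horizontal log axis) of the 27 Stat3 and LIF targets with a row, in the PB-Gbx2 library (red circles) and the PB library (blue squares), 1 library each, ordered by ratio from Bcl6 at the top to Gadd45g at the bottom. The genes in the middle, Pim1 (1272 and 1238) and Myc (654 and 674) among them, nearly coincide, and the gaps at both ends run in opposite directions.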

How the data were processed

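Total RNA (Trizol) was made into TruSeq libraries, per the labels' protocols. STAR and build mm9 are named, without versions, in the submitters' processing notes, and the sources used here name no counting tool or annotation. The deposited table gives each library's level as a normalized whole-number score. The sorted values of both libraries are equal in all 14501 rows, so any global difference was removed before deposit. The deposited ratio and its log2 are PB over PB-Gbx2, and the deposited p-value and adjusted p-value rest on a single library per group and are printed as the authors' values only. From the levels, a log2 ratio (PB-Gbx2 over PB, pseudocount 1) was computed for 14500 symbols after summing 1 repeated symbol, with a minimum level of 1. No test was run. Genes were split into 20 groups by mean level, and the 725 of a gene's own group gave the spread. The script was tested on simulated data without noise, with 200 changed genes. That checks the arithmetic only and says nothing about the scatter of real libraries. The genes named are all members, Gbx2, and from each pathway list every gene past 1.5-fold or otherwise the 2 largest ratios. Others were chosen after their values were seen. Members and lists were chosen with earlier results of these data known. A few genes of the lists are not reported here and enter no list value. Promoter sequences came from RefSeq (GRCm38.p6) and exon overlaps from GENCODE M21, by symbol. Python 3.11.15, numpy 2.4.6, pandas 2.3.3 and matplotlib 3.10.9 were used. The alternatives tried were pseudocounts of 0.1 and 5, minimum levels of 100 and of none, both rescalings of PB-Gbx2 (by the median, or by a mean trimmed by 30% from each side) and centring within level groups.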

Additional observations from a re-analysis of the deposited data

How the results depend on the processing

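The log2 ratios of the 9 members moved by at most 0.04 under every alternative that could be run for them, and none turned direction. With a minimum level of 100, Cish drops out, so 0 members are at least 1.5-fold higher. The same setting gave medians of -0.20 for the receptors and -0.055 for the SOCS family (above 0 without it), since it removes their lowest genes. A median was computed for lists of at least 3 genes, which leaves out the ligands. A pseudocount of 5 moved Lif (2.23), Ctf1, Fgl2, Il4ra and Gadd45g by over 0.1 towards 0, by construction. Of 295 results under the alternatives, 12 moved by more than 0.1 (counts by more than 1.5 times) and no ratio past 1.5-fold changed sign. The rescalings say little about stability, because the deposited values already share one distribution. Leaving out the minimum level could change nothing, because no gene fell below 1. A minimum of 100 removes genes but leaves the ratio of each kept gene as it was. No paired analysis was possible because there is a single library on each side, which also means that none could be omitted. Read depth is not known. The SD of the log2 ratio was 0.87 in the level group of Cish, against 0.33 in that of Socs3.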
